A study of Mus musculus with 5 samples.

Results

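The miRNA table holds entries whose names carry no 5p or 3p ending, and 155 of these, of 1105 mature miRNAs in all, are described here. They were chosen by name alone: every name without an arm ending was taken, except miR-484, miR-451a, names of the miR-297, miR-378, miR-466, miR-467 and miR-669 groups and 1 block of late-numbered mirtron-type names, which together left out 8 entries. Small RNA was sequenced from OP9, a stromal line from mouse bone marrow that the labels call a mesenchymal stem cell. In 2 libraries the cells carried the label Drosha KO (KO below), and in 3 libraries Empty vector and WT (EV). All had reached confluence and then received 1 µM rosiglitazone, which activates PPARγ, for 10 days of adipogenic differentiation. The labels do not say whether replicates were separate cultures or whether the knockout is 1 clone, and Drosha mRNA was not analysed here. The p-values therefore reflect how far these libraries spread, and that spread may be technical. For each miRNA the spread used came mostly from the trend over all tested miRNAs (24.2 prior against 3 residual degrees of freedom).

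Drosha is the nuclear RNase III enzyme that, with DGCR8, cuts a hairpin out of a long primary miRNA transcript. Dicer then removes the loop and leaves a duplex, and its strands are named 5p and 3p after the arm of the hairpin from which they come. An entry without an arm name is one for which the miRNA registry recorded a single mature product.

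The mature sequences that carry the results are given first, from RefSeq (build GRCm38.p6), which held 132 of the 155 entries. Each is written 5′ to 3′ with the seed, bases 2 to 8, in capitals. The first set is of entries that rose in KO cells and lie within introns or between genes:
miR-5100: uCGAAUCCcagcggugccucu
miR-2137: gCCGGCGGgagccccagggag
miR-3474: cCCUGGGAggagacguggauuc
miR-6240: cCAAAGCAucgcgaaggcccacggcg
The second set is of entries whose first 18 bases also lie in the transcripts of many annotated genes:
miR-3470b: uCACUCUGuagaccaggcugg
miR-1195: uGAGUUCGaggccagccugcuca
miR-3473b: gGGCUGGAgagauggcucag
miR-3473e: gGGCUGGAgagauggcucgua
miR-706: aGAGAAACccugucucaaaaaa
miR-3471: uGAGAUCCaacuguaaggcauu
The third set is of tested entries that did not pass the threshold, with the let-7 miRNA that is nearest to let-7j:
let-7j: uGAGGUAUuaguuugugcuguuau
let-7i-5p: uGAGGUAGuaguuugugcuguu
miR-5114: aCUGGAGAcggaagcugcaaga
miR-3473d: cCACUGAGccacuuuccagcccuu

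The authors' values are TPM, in which reads are divided by the length of the mature miRNA and scaled to the same sum in each library, so a rise here is a rise relative to all listed miRNA reads and cannot be told apart from a fall of the other miRNAs. Nearly all tested miRNAs named with an arm are 5p arms. The shares and percents below are therefore of the listed miRNAs and not of all miRNAs in the cells. Whole reads could be recovered from the values. The totals were 304722 and 277142 reads in the KO libraries and 2262367, 2028961 and 1918589 in the EV libraries, summed over all listed pairs of a mature miRNA and a precursor. A single read of 22 bases was therefore worth 3.32 and 3.67 TPM in the KO libraries and 0.448, 0.499 and 0.528 TPM in the EV libraries, and low entries were measured less precisely in KO cells. A count of 0 allows up to 3 reads, which is 9.95 and 11.0 TPM in the KO libraries and 1.34 to 1.58 TPM in the EV libraries, for counting error only. Mesenchymal marker miRNAs, of which 6 of 7 had reads, summed to 12193 and 20551 TPM in the KO libraries and to 7624 to 10642 TPM in the EV libraries. Among markers of other cell types, 3 of 6 haematopoietic miRNAs had reads (77.0 and 147 TPM in KO cells, 97.2 to 138 TPM in EV), miR-142a-5p, miR-223-5p and miR-144-5p being at 0. These sums hide single members. In the limma fit described below, miR-451a was higher in KO cells (19.9 and 58.7 TPM, against 4.99 to 8.06 TPM in EV). Of the haematopoietic list 1 was higher and 0 lower, and of the mesenchymal list 2 were higher and 0 lower. The epithelial list stayed at or under 7.33 TPM in KO cells and 4.03 TPM in EV, the neural list at or under 9.52 TPM in KO cells and 15.6 TPM in EV, and the liver marker miR-122-5p was at 25.7 and 36.5 TPM in KO cells and 5.28 to 11.98 TPM in EV. The muscle and endothelial lists were at 0 in all libraries. The arm-named members of all these lists are 5p arms, and the opposite arms were not looked at. A value of 0 therefore does not show that a cell type was absent. The part of other cell types in the results was not tested.

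Most entries without an arm name had no reads. Of the 155, 116 had no read in any library and 39 had reads, which is 25.2%, against 45.1% of the 942 miRNAs named with an arm (425 with reads). The KO libraries held reads of 24 and 20 entries, and the EV libraries of 28, 27 and 26. Reads were present in both KO libraries for 16 entries, in all 3 EV libraries for 19 and in all 5 libraries for 14. Of the 37 entries numbered below 1000, 8 had reads, as did 6 of the 21 from 1000 to below 2000 and 11 of the 19 from 2000 to below 5000. Of the 18 from 5000 to below 6000, 9 had reads, and of the 60 numbered 6000 or more, 5 did.

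The summed share of the 155 entries lay above every EV library in both KO libraries. It was 0.298% and 0.420% of the TPM sum in the KO libraries, against 0.0883%, 0.0694% and 0.0789% in the EV libraries. The groups did not overlap, and the mean was 0.359% ± 0.0862 (SD, n = 2) in KO cells and 0.0789% ± 0.00944 (SD, n = 3) in EV, a 4.56-fold difference. In recovered reads the entries took 865 and 1100 in the KO libraries and 1912, 1372 and 1461 in the EV libraries.

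**Figure D1:**
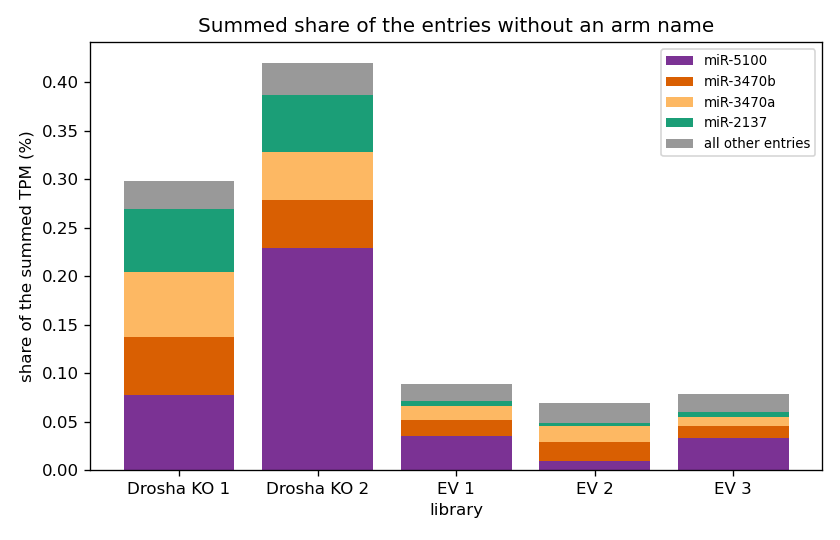
Stacked bars give the percent of each library's TPM sum taken by the entries without an arm name, with the 4 highest entries in colour and all others in grey. The KO bars reach 0.298% and 0.420% and the EV bars 0.0694% to 0.0883%, and nearly all of the difference lies in the coloured parts.

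That share was carried by 4 entries. miR-5100, miR-3470b, miR-3470a and miR-2137 together took 0.269% and 0.387% in the KO libraries and 0.0715%, 0.0483% and 0.0599% in the EV libraries, 5.48-fold more in KO cells. Without them the other entries took 0.0295% and 0.0331% in the KO libraries and 0.0168%, 0.0212% and 0.0190% in the EV libraries, a 1.65-fold difference in which the groups again did not overlap. The 4 were picked by their mean over all 5 libraries, which the KO values help to set: miR-2137 ranked 5 in EV, below let-7j, so this split is partly built in. The make-up of the sum differed between libraries of the same group. miR-5100 made up 26.0% and 54.5% of it in the KO libraries and 39.5%, 13.9% and 41.4% in the EV libraries. miR-2137 made up 21.8% and 14.1% in the KO libraries and 4.29% to 7.15% in the EV libraries. Without miR-5100 the share was 0.206% ± 0.0209 (SD, n = 2) in KO cells and 0.0531% ± 0.00680 (SD, n = 3) in EV, 3.88-fold.

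To compare single miRNAs, limma was fitted to log2(TPM + 1) of the 205 miRNAs whose mean over the 5 libraries reached 5 TPM, and p-values were adjusted by the Benjamini-Hochberg method (BH) over all of them. A miRNA was called when the adjusted p was under 0.05. Where a KO library is left out below, the spread comes from the EV libraries alone and the lone KO library is assumed to vary like them. Of the 155 entries, 13 passed the level filter. Of these 13, 9 were higher in KO cells, 0 were lower and 4 did not pass the threshold. Over all 205 miRNAs the percent called higher was 27.8% and the percent called lower was 27.3% (57 and 56 miRNAs), while among the 186 tested miRNAs named with an arm 46 were higher and 53 lower. The median log2 change was 2.18 for the 13 entries and -0.08 for all tested miRNAs. miR-714, miR-6240 and miR-3473b, with EV means under 5 TPM, passed the filter only through KO cells and had to differ. The count of 9 and the median of 2.18 are therefore partly set by the filter. Of the other 10 entries, 6 were higher. Every KO library lay above every EV library for 10 of the 13 entries, and for 7 of the 10 whose EV mean was at least 5 TPM. Over all 205 tested miRNAs, these entries included and with no limit on the EV mean, the share was 35.6%. No share of all tested miRNAs under that EV limit was computed, for this or for the calls.

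**Figure D2:**
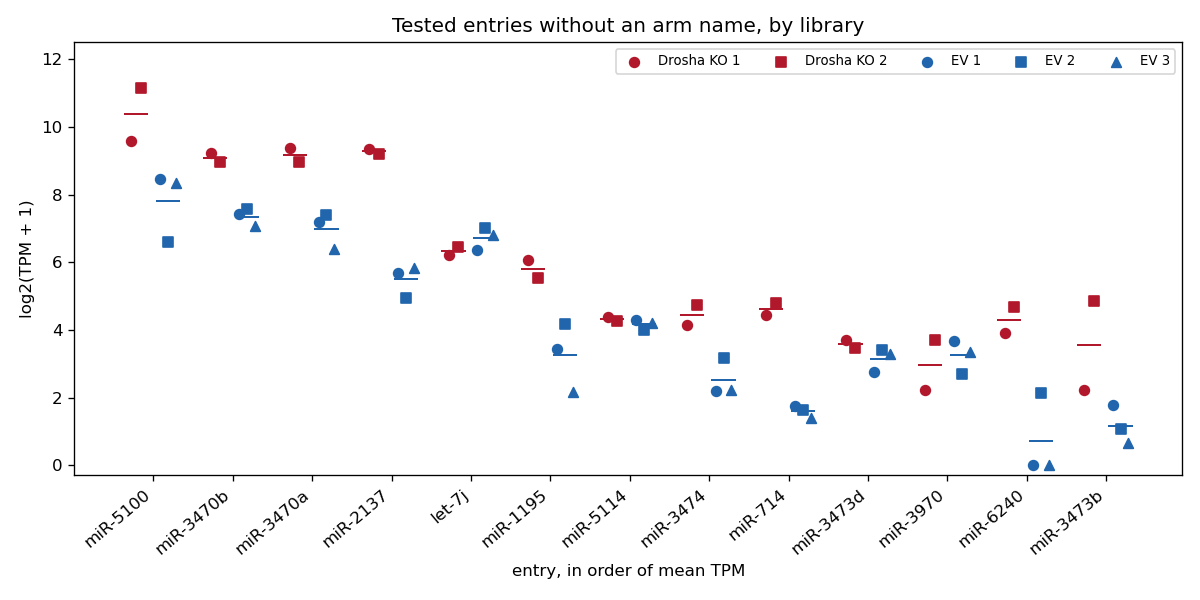
Points give log2(TPM + 1) of the 13 tested entries in each KO (red) and EV (blue) library, and short lines give group means. miR-5100, miR-3470b, miR-3470a, miR-2137 and miR-1195 lie above all EV points in both KO libraries, while let-7j, miR-5114 and miR-3970 overlap between groups.

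miR-2137 had the largest change of the abundant entries. It was at 649.9 and 592 TPM in the KO libraries and at 50.7, 29.8 and 56.4 TPM in the EV libraries. The groups lay far apart, and the mean was 13.6-fold higher in KO cells. Its log2 change was 3.79 (SE 0.35, limma with BH adjustment, adjusted p = 1.38e-09), second in size among the 57 miRNAs called higher, and it was called under all 16 alternative settings, with log2 changes of 1.28 to 4.04. Even as reads it was higher in KO cells, with 187 and 154 reads in the shallower KO libraries and 108, 57 and 102 in the EV libraries. Among the 155 entries it ranked second by mean TPM in KO cells and 5 in EV. Its KO level of 621 ± 41.2 TPM (SD, n = 2) was within the spread of the next entries, miR-3470a at 581 ± 121 and miR-3470b at 547 ± 72.3 TPM.

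The mature miR-2137 is rich in G and C, at 85.7%, the upper end of the range of other listed miRNAs with reads. It lies at chrX:72992113-72992133 on the plus strand (GRCm38.p6) within an intron of Zfp185. Its hairpin is printed with the mature part in capitals, followed by that of miR-5100 for comparison, since both mature sequences lie in the 3′ part:
miR-2137 hairpin: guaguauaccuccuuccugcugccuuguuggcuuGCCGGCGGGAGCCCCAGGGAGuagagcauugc
miR-5100 hairpin: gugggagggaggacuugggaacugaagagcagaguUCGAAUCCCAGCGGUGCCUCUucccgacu
The predicted folding energies of the pair were -24.6 and -24.8 kcal/mol, or -37.3 and -38.8 per 100 bases. Neither mature sequence was found in an annotated transcript outside the miRNA genes. The search took exact matches to those transcripts only, and whether the reads come from another RNA was not tested.

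miR-5100 had the highest mean of all entries in both groups, although in EV library 2 it lay below miR-3470b, miR-3470a and let-7j. It was at 775 and 2289.5 TPM in the KO libraries and at 349, 96.2 and 327 TPM in the EV libraries. No KO library overlapped the EV libraries, but KO library 2 stood well above KO library 1 and EV library 2 well below the other EV libraries. The means were 1532 ± 1071 TPM in KO cells (SD, n = 2) and 257 ± 140.0 TPM in EV (SD, n = 3), a 5.95-fold difference, and the log2 change was 2.58 (SE 0.42, limma with BH adjustment, adjusted p = 2.32e-05). The call was lost without KO library 2 (log2 change 1.80, limma with BH adjustment, adjusted p = 0.106) and under robust empirical Bayes (BH-adjusted p = 0.0775). Mature miR-5100 lies at chr11:60728698-60728718 on the plus strand, in an intron of Mief2, a mitochondrial fission factor.

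miR-3470a and miR-3470b both rose. miR-3470a was at 667 and 496 TPM in the KO libraries and at 145, 168 and 83.4 TPM in the EV libraries. miR-3470b was at 598 and 496 TPM in the KO libraries and at 170.4, 189 and 133 TPM in the EV libraries. Both were higher in every KO library than in any EV library, and in KO library 2 they had the same number of reads, 129. Across libraries miR-3470a had 112% and 100.0% of the level of miR-3470b in KO cells and 84.8%, 88.9% and 62.9% in EV. The log2 changes were 2.18 (SE 0.33, limma with BH adjustment, adjusted p = 8.09e-06) for miR-3470a and 1.74 (SE 0.30, limma with BH adjustment, adjusted p = 4.43e-05) for miR-3470b. Which entry a read that matches both was given to is not stated, so the pair may not be separate measurements.

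**Figure D3:**
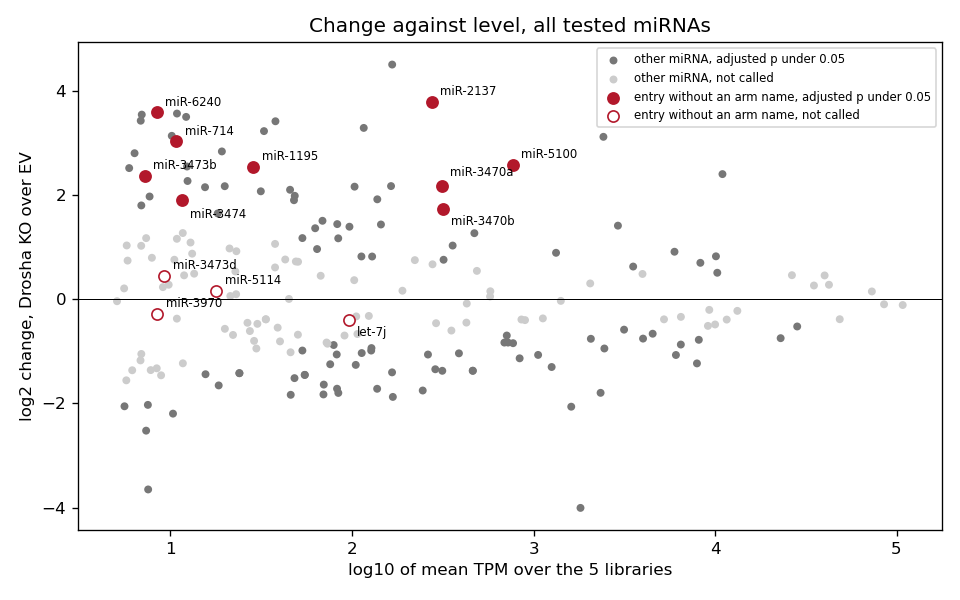
Each point is 1 of the 205 tested miRNAs, with the log10 of its mean TPM on the horizontal axis and its log2 change in KO cells over EV on the vertical axis, as deposited. Of the 13 entries without an arm name, the 9 filled red points were called higher, and the open points for let-7j, miR-5114, miR-3473d and miR-3970 lie near 0.

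Several entries carry sequence that is repeated through the transcriptome. The whole mature sequence of miR-3470b was found in the transcripts of 1016 annotated genes on either strand (546 in sense and 497 in antisense), that of miR-3473b in 726, that of miR-706 in 450 and that of miR-3471 in 61. No other listed miRNA with a RefSeq sequence matched more than 7 genes. When only the first 18 bases were searched, miR-1195 matched 1215 genes and miR-3473e 826. miR-7667-5p, which pairs with miR-3473b on the opposite strand with a single mismatch over 18 bases, was then the only other listed miRNA above 20 genes, with 84. As background, miR-3470b, miR-1195 and miR-706 correspond to stretches of B1 and miR-3473b to a stretch of B2, the common short interspersed elements of the mouse genome. Of the genes matched by the first 18 bases, miR-3470b and miR-1195 shared 469, which is 39.1% of those of miR-3470b and 38.6% of those of miR-1195.

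**Figure D4:**
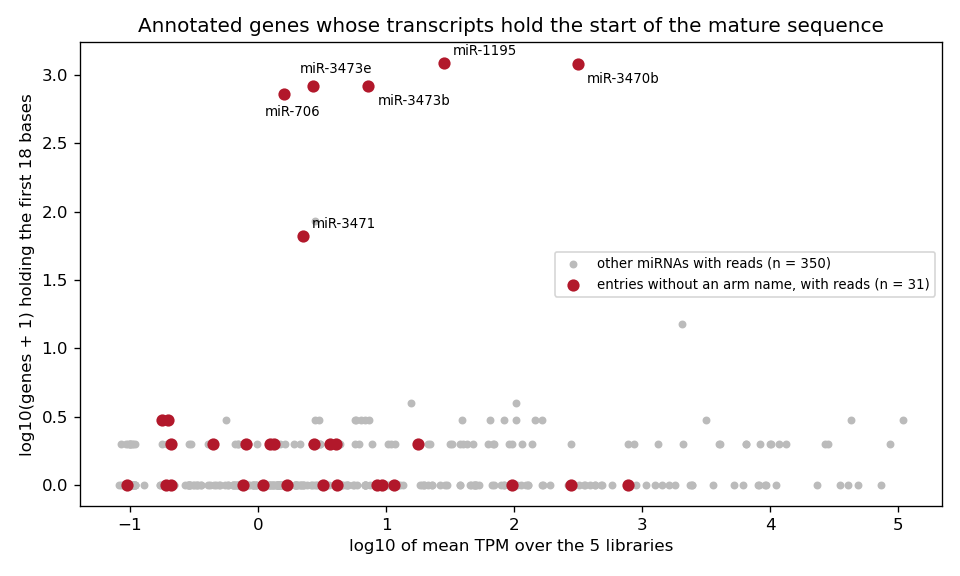
Points are miRNAs with reads and a RefSeq sequence, with the log10 of mean TPM on the horizontal axis and, on the vertical axis, log10 of 1 plus the number of annotated genes whose transcripts hold the first 18 mature bases on either strand. The 6 labelled red points match 65 to 1215 genes, and miR-7667-5p is the grey point beside miR-3471.

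The repeat-like entries as a set, which was defined by sequence and not by level, took 0.0691% and 0.0577% of TPM in the KO libraries and 0.0192%, 0.0211% and 0.0137% in the EV libraries. This was 3.53-fold more in KO cells with no overlap, and miR-3470b made up most of the set. Entries with no RefSeq sequence, miR-3470a and miR-714 among them, could not be searched and are not in it. miR-1195 was at 66.6 and 45.6 TPM in the KO libraries and at 9.86, 17.2 and 3.53 TPM in the EV libraries, with a log2 change of 2.54 (SE 0.57, limma with BH adjustment, adjusted p = 0.00078). Its groups did not overlap, but the call was lost without KO library 1 (log2 change 2.27, limma with BH adjustment, adjusted p = 0.0518) and after thinning to equal reads (3.82, BH-adjusted p = 0.0963).

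The other repeat-like entries were near the read floor. Of these, miR-3473b passed the level filter only through KO cells, so its call is partly set by that filter. miR-3473b had 1 and 7 reads in the KO libraries and 5, 2 and 1 in the EV libraries, and its call (log2 change 2.37, SE 0.88, limma with BH adjustment, adjusted p = 0.0249) held under only 5 of 15 alternatives. Leaving out any library except KO library 1 ended it, and without KO library 2 the log2 change was 1.04. miR-3473e had 1 and 2 reads in KO cells and 5, 0 and 0 in EV, which is 3.48 and 7.68 TPM in KO cells and 2.35, 0 and 0 TPM in EV, with no overlap. miR-706 had 2 and 0 reads in KO cells and 2, 1 and 0 in EV, and miR-3471 had 2 and 0 in KO cells and 7, 3 and 0 in EV. These 3 were not tested, and all their KO values lie under what a count of 0 allows. miR-3473b and miR-3473e share a seed and their first 18 bases, and differ from each other by G19A and U20G within their overlap (miR-3473e first, positions from its 5′ end).

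The remaining rises were of low entries. Of these, miR-714 and miR-6240 passed the level filter only through KO cells and had to differ, so their calls and p-values are partly set by that filter. miR-714 was at 20.9 and 26.9 TPM in the KO libraries and at 2.35, 2.09 and 1.66 TPM in the EV libraries, on 6 and 7 reads in KO cells and 5, 4 and 3 in EV. Its log2 change was 3.03 (SE 0.69, limma with BH adjustment, adjusted p = 0.000887), and its call was lost after thinning to equal reads (3.25, BH-adjusted p = 0.0641). miR-6240 was at 14.03 and 24.8 TPM in the KO libraries and at 0, 3.38 and 0 TPM in the EV libraries, so that EV libraries 1 and 3 had no read and EV library 2 had 8. Its log2 change was 3.59 (SE 0.86, limma with BH adjustment, adjusted p = 0.00134), which depends on the pseudocount, with 5.85 at a pseudocount of 0.1 and 1.39 at 10. miR-6240 lies between genes at chr5:114851973-114851998 on the plus strand, and 69.2% of its bases are G or C. The search of annotated transcripts found no exact match to it, and whether its reads come from another RNA was not tested.

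miR-3474, in an intron of Actr5, a subunit of the INO80 chromatin remodelling complex, was at 16.6 and 25.7 TPM in the KO libraries. It was at 3.58, 7.99 and 3.69 TPM in the EV libraries. The groups did not overlap and the log2 change was 1.91 (SE 0.64, limma with BH adjustment, adjusted p = 0.0145), on 5 and 7 reads in KO cells and 8, 16 and 7 in EV. The call was lost without KO library 2 (1.60), without EV library 1 (1.74) or EV library 3 (1.75), under quantile normalization (1.30) and without a filter on low values (limma with BH adjustment, adjusted p = 0.0556).

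The 4 tested entries that were not called included let-7j, the fifth most abundant of the set. It was at 73.0 and 87.4 TPM in the KO libraries and at 82.1, 127 and 111 TPM in the EV libraries, and the groups overlapped (log2 change -0.39, SE 0.36, limma with BH adjustment, adjusted p = 0.336). let-7j differs from let-7i-5p, a member of the let-7 family of growth-restraining miRNAs, by the single change G8U over the 22 bases of let-7i-5p, counted from its 5′ end. That change lies at the last base of the seed. let-7i-5p was at 25397 and 19519 TPM in the KO libraries and at 30711, 38291 and 27868 TPM in the EV libraries. The level of let-7j was 0.287% and 0.448% of that of let-7i-5p in the KO libraries and 0.267%, 0.332% and 0.399% in the EV libraries, and these ranges overlapped. Whether the reads of let-7j come from let-7i-5p with a mismatch was not tested. let-7k differs from let-7b-5p by the single change U9G over 19 bases (positions of let-7b-5p) and shares the seed of 9 let-7 and miR-98 miRNAs with reads. It had 1 read in each KO library and 5, 3 and 6 in the EV libraries.

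miR-5114 was at 19.9 and 18.3 TPM in the KO libraries and at 18.8, 14.97 and 17.4 TPM in the EV libraries, with a log2 change of 0.16 (SE 0.51, limma with BH adjustment, adjusted p = 0.789). The ranges overlapped, and the sign of the change was negative under TMM rescaling (-0.18) and quantile normalization (-0.32). Its mature sequence lies in the coding sequence of Scd2 on the same strand, at chr19:44303171-44303192. Scd2 encodes a stearoyl-CoA desaturase of fatty acid synthesis. The Scd2 transcript itself was not analysed here.

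miR-3473d, in an intron of the RNA helicase gene Ddx19b, was at 12.2 and 10.1 TPM in the KO libraries and at 5.75, 9.61 and 8.70 TPM in the EV libraries. The KO libraries lay above the EV libraries by less than 1 KO read (log2 change 0.45, SE 0.62, limma with BH adjustment, adjusted p = 0.528), and the change was -0.43 under quantile normalization. miR-3970 was at 3.65 and 12.1 TPM in the KO libraries and at 11.8, 5.49 and 9.28 TPM in the EV libraries, on 1 and 3 reads in KO cells, and did not pass (log2 change -0.28, SE 0.68, limma with BH adjustment, adjusted p = 0.716). Its log2 change was 0.46 without KO library 1.

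Below the level filter, 26 entries had reads. The lowest tested entry, miR-3473b, had a mean of 7.21 TPM over the 5 libraries and the highest untested one, miR-3963, had 4.11 TPM. miR-3963 had 0 and 4 reads in the KO libraries and 1, 0 and 5 in EV. miR-546, in an exon of the phosphatase gene Ctdsp2 outside its coding sequence, had 3 and 0 reads in KO cells and 4, 3 and 3 in EV. miR-6395 had 1 and 0 reads in KO cells and 13, 4 and 14 in EV, and these 3 entries overlapped between groups. miR-5116, in an exon of Mmgt1 outside its coding sequence, had 2 reads in each KO library and 2, 3 and 2 in EV, which is 6.95 and 7.68 TPM in KO cells and 0.939, 1.57 and 1.11 TPM in EV. Its groups did not overlap, as was true of let-7k, but both rest on 1 or 2 KO reads in a library and were not tested.

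The entries with reads in a single group were low throughout. Reads in KO cells only were found for 3 entries, with at most 2 reads in a library, and reads in EV only for 11 entries, with at most 11 reads in a library. The highest of those in EV only was miR-5113, at 3.86, 4.30 and 5.55 TPM in the EV libraries and at 0 in both KO libraries, where a count of 0 allows up to 9.52 and 10.5 TPM. No fold or p is therefore given. miR-5113 was named after its values were seen, and its mature sequence lies in an exon of Tnrc6b, a gene of the miRNA silencing complex, outside the coding sequence.

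By position, 10 of the 31 entries with reads and a RefSeq sequence lay in an exon of an annotated gene on the same strand, 10 in an intron on the same strand, 5 in an intron on the opposite strand and 6 between genes. The exon entries, which besides miR-5114, miR-546, miR-5116 and miR-5113 include miR-1291 in the H/ACA small nucleolar RNA Snora34, summed to 43.3 and 36.8 TPM in the KO libraries and to 27.3, 23.7 and 31.7 TPM in EV. These groups did not overlap, with 12 and 10 reads in KO cells and 60, 47 and 60 in EV. The gap from 31.7 to 36.8 TPM rests on few KO reads, since a read of 22 bases is worth 3.67 TPM in KO library 2. In KO library 1, 13.7 TPM of the sum came from 3 reads of miR-546. Apart from position, exact matches to the mature sequence were searched in all annotated transcripts on either strand. At least 1 gene matched for 15 of 31 entries with reads (48.4%) and for 20 of 101 entries at 0 (19.8%). The same held for 92 of 350 other miRNAs with reads (26.3%). The 15 include miR-3470b, miR-3473b, miR-706, miR-3471 and miR-703, which themselves lie in introns or between genes, so this count is not one of exon entries. These shares are descriptions and were not tested.

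The predicted hairpins of entries without an arm name had less negative median folding energies per base than those of other listed miRNAs, but the ranges overlapped widely and no difference was tested. The median folding energy was -38.7 kcal/mol per 100 bases for 27 entries with reads and -32.8 for 95 entries at 0. It was -42.4 for 327 other miRNAs with reads and -41.7 for 438 others at 0. The median hairpin lengths were 89 and 101 bases for the entries with reads and at 0, and 74 and 66 bases for the others. Energies of the entries with reads ran from -77.3 for miR-3473b to -18.3 for miR-703, and those of other miRNAs with reads from -84.7 to -21.7. The median content of G and C was 57.1% for entries with reads and 50.0% for other miRNAs with reads. The 2 extremes of the entries with reads were miR-6538 at 94.7%, with 1 read in all, and let-7j at 33.3%, a value shared by miR-703.

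**Figure D5:**
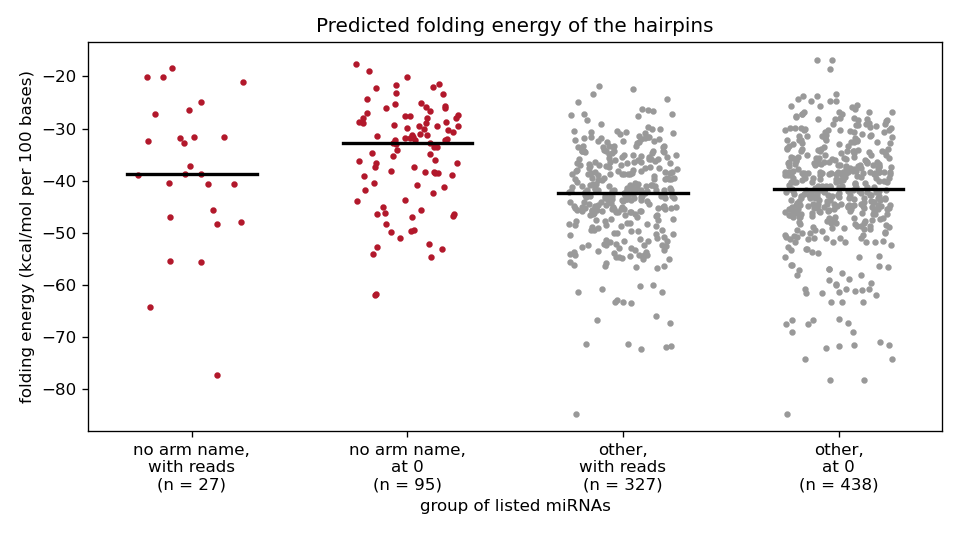
Points give the predicted minimum folding energy of each RefSeq hairpin per 100 bases, by group, with black lines at the medians; lower values are more stable. The medians are -38.7 and -32.8 for entries without an arm name with reads and at 0, and -42.4 and -41.7 for other listed miRNAs.

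The direction of these changes depended on what the libraries were scaled to. Under TMM rescaling the median log2 change was 1.81 for the 13 tested entries and -0.47 for all tested miRNAs. The 13 again include miR-714, miR-6240 and miR-3473b, so that median is partly set by the filter too. Of the 13 entries 9 were higher, while the split over all tested miRNAs moved to 41 higher and 82 lower. When the libraries were instead rescaled to an equal sum of a list of Drosha-independent miRNAs (mirtrons and other miRNAs released without Drosha, a list already known to move in these data, of which 5 of 5 tested rose before rescaling by a median log2 value of 3.12), the median over all tested miRNAs became -2.49. The median of the 17 entries then tested was -0.78, with 1 higher and 6 lower. Those lower included let-7j (-2.89), miR-3970 (-2.51), miR-5114 (-2.24) and miR-3473d (-1.85), which were not called before rescaling. miR-2137 was the entry that stayed called as higher (1.28), while miR-3470a (-0.34), miR-3470b (-0.78) and miR-3474 (-0.38) turned negative. The calls of miR-5100 (0.058), miR-1195 (0.16), miR-714 (0.91), miR-3473b (0.52) and miR-6240 (2.19) were lost. Most of the sum used was miR-484, at 21642 and 21011 TPM in the KO libraries and 3640, 3537 and 5105 TPM in the EV libraries. The next, miR-1981-5p, was at 4479 and 5882 TPM in the KO libraries and 623, 596 and 556 TPM in EV. The rescaled values therefore mainly follow the change of 1 miRNA. This rescaling was chosen after seeing the data.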

How the data were processed

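Small RNA sequencing of 5 libraries was analysed from a table of 1191 rows, each a mature miRNA with 1 precursor. The authors deposited TPM values that sum to the same total in each library. Per the submitters' processing notes Bowtie2 2.5.1 and GRCm38 were used, in no stated role. Per the labels' protocols the libraries carry unique molecular identifiers; whether counting used them, and the counting tool, trimming, filters and strand, are not stated in these sources.

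Reads were recovered by searching lengths of 15 to 30 bases at which all 5 values were whole reads within 0.0001. All 536 rows with reads had such a length, 6 had more than 1, and in 406 of 406 rows with a RefSeq sequence the length was that of the mature miRNA. Mature miRNAs with several precursors were represented by the row of highest mean, while shares were summed over all rows. Chi-square per degree of freedom between libraries of 1 group was 71.3 to 141, so none repeats another. limma 3.58.1 in R 4.3.3 was fitted to log2(TPM + 1) with a mean-variance trend (3 residual and 24.2 prior degrees of freedom), two-sided. Fold changes on this scale understate changes of low miRNAs; ratios are of mean TPM. Hairpins were folded with ViennaRNA 2.7.2, and mature sequences were searched by exact match in GENCODE M21 transcripts other than miRNA genes, on either strand.

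The entries, lists and tests were chosen with earlier results of these data known. Named entries were all that passed the filter, the 5 just below it, and others picked afterwards for their sequence or position (miR-3473e, miR-706, miR-3471, miR-1291, miR-703, miR-6538) or values (miR-5113). Alternatives were other pseudocounts, filters and scalings, thinning to 200659 reads, robust empirical Bayes, a replicate block and leaving out each library.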

Additional observations from a re-analysis of the deposited data

How the results depend on the processing

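Counts of calls are out of all tested miRNAs (57 higher, 56 lower) or out of the entries without an arm name (9 higher, 0 lower). After thinning to equal reads 35 were higher and 37 lower over all. With the replicate block, fitted to replicates 1 and 2, 35 were lower over all, 40 higher, and 7 entries higher, the calls of miR-3474 (1.75) and miR-3473b (2.11) being lost. Without EV library 3 and with no block, 7 entries were higher too. The labels do not pair the replicate numbers (correlation of replicate differences between groups -0.14 over 205 miRNAs). At a mean of at least 20 TPM 5 entries were higher, since only 6 were tested, and without a filter 1 was lower, miR-5113, whose KO libraries are at 0 with a read floor above its EV values, so that this call is not used. Rescaled to the Drosha-independent sum, 3 were higher and 173 lower over all, and 1 entry was higher and 6 lower. Leaving out 1 library gave 39 to 55 higher and 34 to 52 lower over all, 6 to 8 entries higher and 0 lower; 34 were lower without KO library 2 and also without EV library 1. Quantile normalization gave 42 higher and 55 lower over all.

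Signs changed for miR-5114 under TMM (-0.18), quantile normalization (-0.32) and the Drosha-independent sum (-2.24), for miR-3473d under quantile normalization (-0.43) and the Drosha-independent sum (-1.85), for miR-3970 after thinning (0.13) and on leaving out 1 library (-1.03 to 0.46; 0.46 without KO library 1), and for miR-3470b (-0.78), miR-3470a (-0.34) and miR-3474 (-0.38) under the Drosha-independent sum. The cause of these changes was not tested. Of 201 values for single entries under alternatives, 164 kept their direction and side of the threshold.

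The summed share was 0.502% in KO cells and 0.110% in EV over 1 row per mature miRNA, where the total is the sum of those rows, and 0.206% and 0.0531% without miR-5100. Leaving out 1 library gave 0.298% to 0.420% in KO cells and 0.0741% to 0.0836% in EV. KO depth limits every entry under about 10 TPM.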
